A study of Homo sapiens with 10 samples.

Results

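Interferon-stimulated genes, the genes that cells switch on when an interferon binds its receptor, were examined in 2 sorted populations of one human colorectal cancer cell line. The set was a list of 48 gene symbols, matched exactly to the symbols in the count tables. All 48 were among the 26485 genes listed, and 38 had enough reads to be tested. The cells were SW480, an established line from a human colorectal adenocarcinoma, labelled WT and kept in DMEM with 10% fetal bovine serum, an antibiotic and antimycotic mix and glutamine, which both populations share. They had been sorted by flow cytometry with an antibody to the surface receptor ROBO1 into a positive fraction, labelled SW480-CBC (ROBO1pos), and a negative one, labelled SW480-RSC (ROBO1neg). Each fraction had 5 replicates of polyadenylated RNA, and the labels name no interferon, drug treatment or infection for either. Both fractions come from 1 line, and nothing says whether replicates were separate cultures, and the p-values below reflect only how far these libraries vary, possibly for technical reasons.

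Gene totals ran from 23228686 to 29539100 reads per library, so that 1 CPM (CPM being a gene's count relative to the library's gene total, scaled for composition) rested on 23.2 to 29.5 counts. ROBO1, the receptor used for sorting, measured 430 ± 26.7 CPM in ROBO1pos and 7.25 ± 1.47 in ROBO1neg (SD, n = 5 each), as the labels say, and is no independent finding. Of 11 epithelial markers, 9 were tested, with 4 higher in each population (44.4%). Of all genes tested, 40.4% were higher in ROBO1neg and 41.6% in ROBO1pos, so these shares are near those of genes at large. The keratin genes KRT8, KRT18 and KRT19 and the cadherin gene CDH1 were higher in ROBO1neg, by up to 1.77-fold. EPCAM was 2.25-fold higher in ROBO1pos, and the intestinal genes VIL1 (503 against 27.7 CPM), CDX1 and CDH17 were 18.2-fold, 20.6-fold and 52.9-fold higher there. The folds of CDX1 and CDH17 rest on few ROBO1neg reads, 4 and 16 counts over all libraries of that fraction. CDX1 was low in ROBO1pos too, with a mean of 0.74 CPM. Another intestinal gene, CDX2, was tested but not called, its mean CPM being 28.8 for the positive fraction against 30.0 for the negative. KRT20 had 0 counts and CEACAM5 1 count in all. The part of these marker differences in the results below was not tested. Log2 fold changes are ROBO1pos minus ROBO1neg, so a negative value is higher in ROBO1neg. Genes were called at an adjusted p under 0.05 by edgeR's quasi-likelihood test over all 14932 genes tested. That test called 82% of them, so a call alone sets a gene apart from few others.

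Type I and type III interferons signal through receptors bound to JAK1 and TYK2, which activate transcription factors. STAT2 and IRF9 belong to the complex ISGF3, which binds the interferon-stimulated response element in the promoters of many genes of the set. Interferon gamma instead acts through JAK1 and JAK2 and on promoters that hold the gamma-activated site. The products sense foreign RNA, block entry or replication of viruses, or feed back on the pathway, and in epithelia many are also made at a low level without infection.

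Promoters are shown first because genes that went in opposite directions, or differed little, hold the same short motif there. RefSeq windows of 300 bases (GRCh38.p14), from 250 before to 50 after a gene's start, were found for 37 of the 48 genes. The response element was searched as GAAA, any 2 bases and GAAA, and the gamma-activated site as TTCNNNGAA, each on both strands. The first was present in 27 of the 37 genes (73%), against 4.38% of the 27305 genes in the table, and the second in 11 (29.7%) against 9.38%. In IFITM1, MX1, BST2 and IFI27 a match to one motif overlapped a match to the other. The sequences below run 5′ to 3′ over the 150 bases before the start, and a few bases beyond where a match reaches there. Capitals mark the matches. The first 6 genes were higher in ROBO1neg.

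IFITM1 (chr11:313890-314043, plus strand; response element and gamma-activated site): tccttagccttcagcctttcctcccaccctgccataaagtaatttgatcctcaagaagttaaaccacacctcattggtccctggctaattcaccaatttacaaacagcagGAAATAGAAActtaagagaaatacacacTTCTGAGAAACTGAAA
IFITM3 (chr11:320861-321010, minus strand; response element): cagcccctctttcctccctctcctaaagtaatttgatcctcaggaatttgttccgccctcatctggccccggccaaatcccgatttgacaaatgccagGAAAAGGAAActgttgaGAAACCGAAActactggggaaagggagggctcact
IFI35 (chr17:43006634-43006783, plus strand; gamma-activated site): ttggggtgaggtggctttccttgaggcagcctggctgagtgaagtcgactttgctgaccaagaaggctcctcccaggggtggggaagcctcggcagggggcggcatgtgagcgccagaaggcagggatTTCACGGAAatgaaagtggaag
GBP3 (chr1:89022855-89023016, minus strand; both motifs): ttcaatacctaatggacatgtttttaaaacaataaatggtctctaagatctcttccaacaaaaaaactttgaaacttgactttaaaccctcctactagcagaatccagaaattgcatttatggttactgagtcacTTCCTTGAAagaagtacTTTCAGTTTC
IRF1 (chr5:132490774-132490923, minus strand; gamma-activated site): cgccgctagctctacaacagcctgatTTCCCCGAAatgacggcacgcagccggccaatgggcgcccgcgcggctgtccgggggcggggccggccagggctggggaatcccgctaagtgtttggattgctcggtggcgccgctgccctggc
PARP14 (chr3:122680689-122680838, plus strand; both motifs): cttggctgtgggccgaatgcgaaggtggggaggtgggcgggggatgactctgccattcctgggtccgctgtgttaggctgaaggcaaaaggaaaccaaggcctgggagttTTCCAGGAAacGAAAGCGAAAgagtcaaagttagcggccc

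SAMD9 and HERC5, which were higher in ROBO1pos, and ISG15, IFIT5 and EIF2AK2, which differed little or were not called, also hold the response element.

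SAMD9 (chr7:93117980-93118129, minus strand; response element): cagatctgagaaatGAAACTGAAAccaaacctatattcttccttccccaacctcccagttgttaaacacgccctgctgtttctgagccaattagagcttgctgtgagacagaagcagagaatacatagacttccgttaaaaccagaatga
HERC5 (chr4:88456969-88457118, plus strand; response element): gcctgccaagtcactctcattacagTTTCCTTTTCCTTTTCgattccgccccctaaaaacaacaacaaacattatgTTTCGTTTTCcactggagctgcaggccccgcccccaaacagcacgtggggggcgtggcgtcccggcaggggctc
ISG15 (chr1:1013347-1013496, plus strand; response element): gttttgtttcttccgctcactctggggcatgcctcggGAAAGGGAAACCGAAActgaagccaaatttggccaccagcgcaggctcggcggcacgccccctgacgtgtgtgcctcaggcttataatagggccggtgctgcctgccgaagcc
IFIT5 (chr10:89414418-89414573, plus strand; response element): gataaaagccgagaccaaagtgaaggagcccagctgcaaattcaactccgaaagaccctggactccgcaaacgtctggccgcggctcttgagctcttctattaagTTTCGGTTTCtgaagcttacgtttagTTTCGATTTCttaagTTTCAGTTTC
EIF2AK2 (chr2:37156977-37157130, minus strand; response element): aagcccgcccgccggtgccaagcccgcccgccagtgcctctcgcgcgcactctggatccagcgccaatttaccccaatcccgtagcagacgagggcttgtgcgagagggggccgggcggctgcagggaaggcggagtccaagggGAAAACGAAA

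By direction, the response element was found in 15 of 22 genes higher in ROBO1neg (68.2%), in 2 of 3 higher in ROBO1pos, in 4 of 4 not called and in 6 of 8 not tested. The gamma-activated site was found in 10 of the 22 (45.5%), in 0 of the 3, in 0 of the 4 and in 1 of the 8. Of all genes tested that have a window, 8.49% hold it. At that share, 0 in groups of 3 and 4 genes sets them apart from few others. These counts are descriptions of letters in 1 window per start, and a match is not a bound site.

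**Figure D1:**
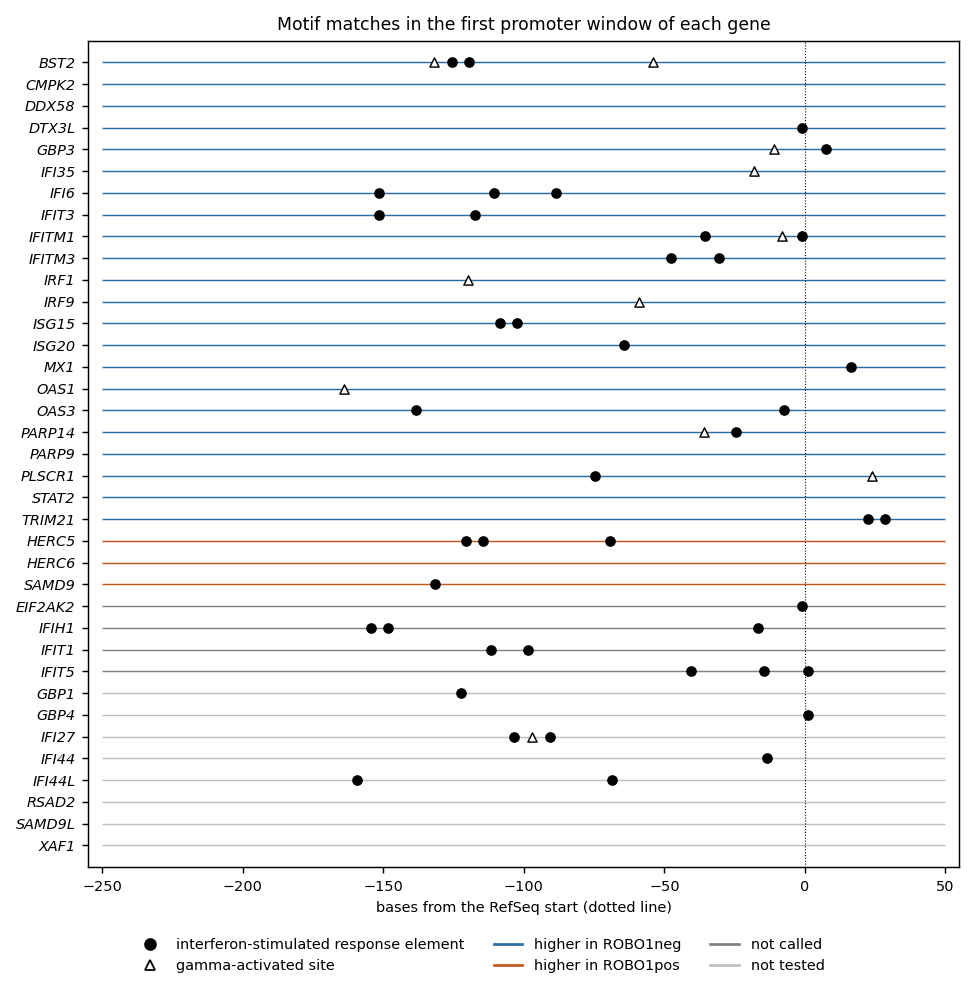
Position of each match to the interferon-stimulated response element (filled circles) and the gamma-activated site (open triangles) in the first RefSeq window of 37 genes, in bases from the start; line colour gives the call. Filled circles lie on lines of every colour, and the triangles on lines of genes higher in ROBO1neg and on that of IFI27, which was not tested.

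Most genes of the set were higher in ROBO1neg. Of the 38 tested, 29 were higher there (76.3%, against 40.4% of all genes tested), 3 were higher in ROBO1pos (7.89%, against 41.6%) and 6 were not called. At a difference of at least 2-fold, 21 were higher in ROBO1neg (55.3%, against 16.8%) and 2 in ROBO1pos (5.26%, against 13.5%). The 5 libraries of each population did not overlap for 27 genes with ROBO1neg above (35.7% of all genes) and for 3 with ROBO1pos above (36.1% of all genes). The median log2 fold change was -1.28 and that of all genes tested 0.02. The direction was therefore largely shared, but the size was not: 4 genes, IFITM1, GBP3, IFI35 and IFITM3, differed by between 74.1-fold (IFITM3) and 169.7-fold (IFITM1), and the rest by less, up to 6.84-fold (SAMD9) and 6.53-fold (MX1).

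**Figure D2:**
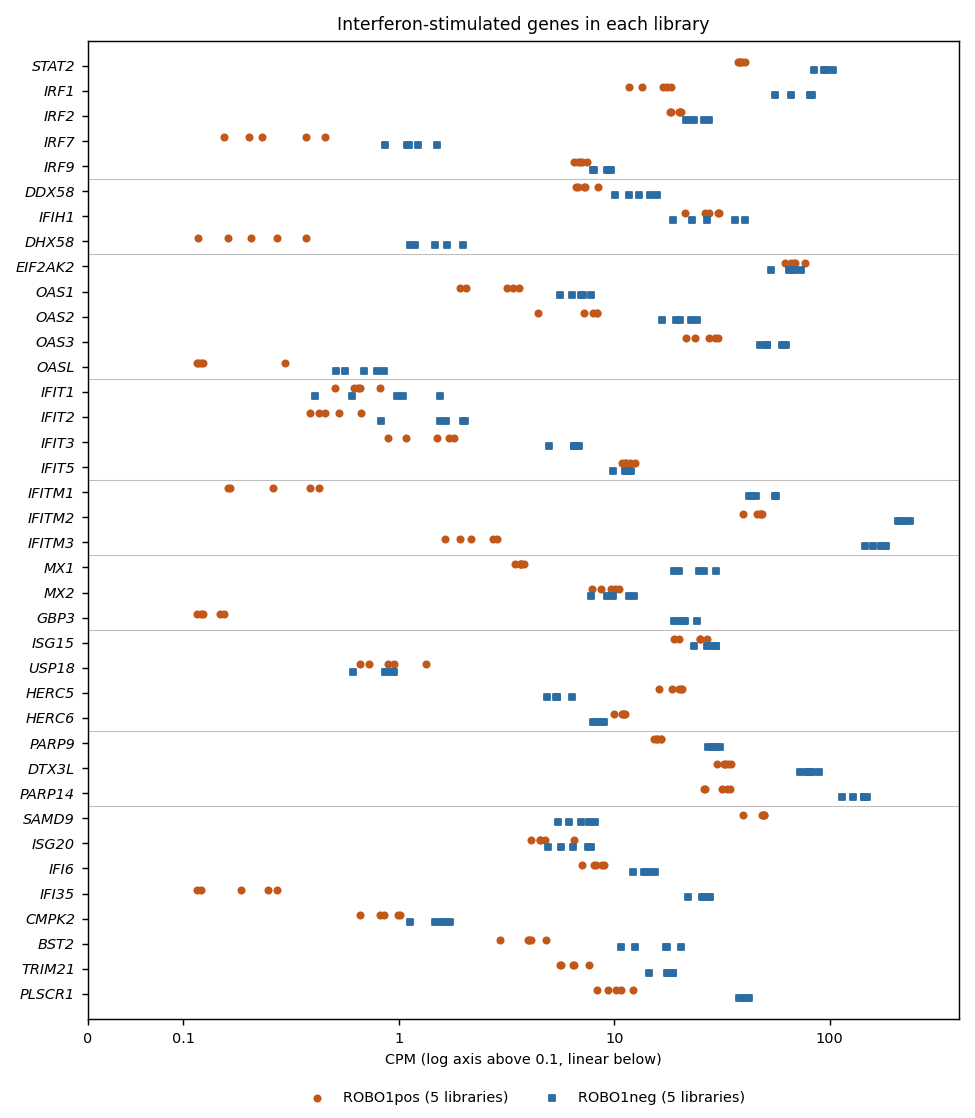
CPM of the 38 tested genes in each library (log axis above 0.1), 5 circles for ROBO1pos and 5 squares for ROBO1neg per gene, with lines between functional groups. Circles and squares are far apart for IFITM1, IFITM3, GBP3 and IFI35, overlap for IFIT5 and EIF2AK2, and change places for SAMD9 and HERC5.

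The interferons themselves were almost unread. Of 22 ligand genes, 19 had 0 counts in all 10 libraries, among them IFNB1 and IFNG, which in 126856216 and 127802393 gene reads allows up to about 0.0235 CPM in ROBO1pos and 0.0237 in ROBO1neg. IFNE, an epithelial type I interferon, was the 1 ligand tested, at 0.631 ± 0.148 CPM in ROBO1pos and 0.550 ± 0.219 in ROBO1neg (SD, n = 5), and was not called. IFNL1 had 11 and 4 counts over the 5 libraries of each.

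Receptor and kinase genes differed by less than 2-fold, mostly in the same direction as the set. Of the 9 receptor and kinase genes reported, 7 were higher in ROBO1neg (77.8%, against 40.4% of all genes tested), 1 in ROBO1pos (11.1%, against 41.6%) and 1 was not called, with a median log2 fold change of -0.49. In a test against 1.5-fold, 0 were called in either direction. The type I receptor chains IFNAR1 and IFNAR2 were at -0.33 and -0.53, and the chains IL10RB and IFNLR1 of the type III receptor at -0.62 and -0.67. IFNGR1, which binds interferon gamma, was at -0.67 (SE 0.13), and its partner IFNGR2 at 0.21 was not called. Among the kinases, JAK1 was at -0.49 and JAK2 at -0.40, whereas TYK2, used by type I and type III receptors, was higher in ROBO1pos at 119 ± 4.23 against 85.3 ± 5.30 CPM (0.47, SE 0.05). TYK2 lies among genes of chromosome 19 with a median log2 fold change of 0.60. With that median removed it was at -0.13, so it was higher in ROBO1pos by slightly less than that median.

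Of 11 genes tested from a list of sensors, adaptors and other genes upstream of interferon, 9 were higher in ROBO1neg (81.8%, against 40.4% of all genes tested). The list also holds genes that limit sensing, such as TREX1, so this is not a count of inducing genes alone. TRIM25 was not called, and the mitochondrial adaptor MAVS was higher in ROBO1pos (0.25, SE 0.05, as 1 of 11 against 41.6% of all genes). TREX1, a DNA exonuclease that limits sensing of cytosolic DNA, measured 20.8 ± 1.18 CPM in ROBO1neg and 3.85 ± 0.403 in ROBO1pos. TMEM173, which encodes the adaptor STING, was at 46.6 ± 6.07 against 10.4 ± 1.23, while MB21D1, the cGAS enzyme upstream of it, had 34 counts over all ROBO1neg and 17 over all ROBO1pos libraries and was not tested. TLR3, IKBKE, TICAM1 and SAMHD1 completed the 6 genes with the smallest adjusted p, at log2 fold changes of -2.03, -1.52, -0.95 and -0.90.

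The transcription factors of the response were all higher in ROBO1neg (as were 40.4% of all genes tested), but by different factors. IRF2 and IRF9 were no longer called in a test against 1.5-fold. STAT2, at chr12:56341597-56360107, was at 38.4, 37.4, 39.1, 40.5 and 38.05 CPM in ROBO1pos replicates 1 to 5 and at 104, 84.9, 95.2, 93.6 and 96.6 in ROBO1neg (log2 fold change -1.29, SE 0.05, adjusted p = 2.1e-11). IRF9, which joins STAT2 in ISGF3, was at 6.77, 7.08, 7.44, 6.91 and 6.49 CPM in ROBO1pos and 7.99, 9.22, 9.46, 8.02 and 9.70 in ROBO1neg (-0.35, SE 0.09, adjusted p = 0.0016). The ranges of the populations do not overlap for either gene, yet the gap is narrow for IRF9. IRF9 shares 43.6% of the 50-base stretches of its GENCODE transcripts mostly with another annotated gene, AL136295.5, so its count is uncertain. Within a library, the log2 ratio of STAT2 to IRF9 was 2.47 ± 0.0775 in ROBO1pos and 3.41 ± 0.200 in ROBO1neg (SD, n = 5; exact two-sided permutation test over 252 assignments, p = 0.00794, adjusted p = 0.0119 over 15 pairs).

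IRF1, an activator that interferon gamma and other cytokines induce, was at 11.7, 13.5, 16.8, 18.3 and 17.5 CPM in ROBO1pos and 55.9, 66.1, 80.9, 81.9 and 82.9 in ROBO1neg (-2.24, SE 0.13). Replicate 1 is lowest in both populations, and the lowest ROBO1neg library lies far above the highest ROBO1pos library. IRF2, which can oppose IRF1 at the same sites, was at 18.2 to 20.4 CPM (median 19.9) in ROBO1pos and 21.6 to 27.6 (median 23.4) in ROBO1neg (-0.32, SE 0.08, adjusted p = 0.0014). The log2 ratio of IRF1 to IRF2 was -0.34 in ROBO1pos and 1.59 in ROBO1neg, a difference of -1.93 (exact permutation adjusted p = 0.0119). IRF7, which drives interferon alpha genes, was low in both, at 0.155, 0.371, 0.232, 0.202 and 0.452 CPM in ROBO1pos and 1.23, 0.861, 1.09, 1.501 and 1.12 in ROBO1neg (-2.03, SE 0.27).

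The IFITM genes, which encode small membrane proteins that hinder fusion of viruses with the cell, held 2 of the 4 steepest differences. IFITM1, at chr11:314040-315272, was at 0.387, 0.259, 0.426, 0.162 and 0.164 CPM in ROBO1pos and 43.4, 42.3, 55.9, 56.3 and 45.3 in ROBO1neg (-7.41, SE 0.18, adjusted p = 1.8e-13), with 36 counts over all ROBO1pos libraries. IFITM3, at chr11:319676-320860, was at 2.17, 1.63, 2.87, 2.75 and 1.93 CPM in ROBO1pos and 145, 159, 174, 180.3 and 182 in ROBO1neg (-6.21, SE 0.12, adjusted p = 2.4e-14). Both were thus low in every ROBO1pos library and far higher in every ROBO1neg library. IFITM2, the next gene of the cluster, was at 47.7, 39.8, 46.2, 48.3 and 47.3 CPM in ROBO1pos and 219, 214, 235, 218 and 208 in ROBO1neg (-2.25, SE 0.06, adjusted p = 2.9e-13). IFITM2 was therefore read well in both populations and differed by a smaller factor than its neighbours. Within a library, the log2 ratio of IFITM2 to IFITM3 was 4.32 ± 0.267 in ROBO1pos and 0.38 ± 0.156 in ROBO1neg (exact permutation p = 0.00794, adjusted p = 0.0119). These genes are near copies: IFITM1, IFITM2 and IFITM3 share 32%, 34.1% and 17.4% of the 50-base stretches of their GENCODE transcripts with other genes, so reads may have been lost or split between them. Tested genes around the cluster had median log2 fold changes from -0.44 to -0.40, and with these removed IFITM1, IFITM2 and IFITM3 were at -6.99, -1.81 and -5.81.

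GBP3 and MX1 were the tested GTPases with the largest differences. GBP3, a guanylate-binding protein at chr1:89006680-89022866, was at 0.116, 0.148, 0.155, 0.121 and 0.123 CPM in ROBO1pos and 18.9, 20.9, 21.4, 20.1 and 24.3 in ROBO1neg (-7.26, SE 0.14, adjusted p = 3.0e-14). Each ROBO1pos library holds only a few reads of it, 17 in all. The other guanylate-binding genes of the set, GBP1, GBP2 and GBP4, were too low to be tested. They had 84, 29 and 11 counts over all ROBO1neg libraries and 2, 26 and 4 over all ROBO1pos libraries. MX1, a dynamin-like GTPase that traps viral nucleocapsids, was at 3.68, 3.71, 3.45, 3.64 and 3.82 CPM in ROBO1pos and 18.9, 20.1, 24.7, 25.97 and 29.7 in ROBO1neg (-2.71, SE 0.12). MX2, its neighbour on chromosome 21, was at 7.85 to 10.6 CPM (median 9.69) in ROBO1pos and 7.77 to 12.3 (median 9.90) in ROBO1neg and was not called (-0.12, SE 0.12, adjusted p = 0.37). The ranges of MX2 overlap while those of MX1 are far apart. The log2 ratio of MX1 to MX2 was -1.33 ± 0.201 in ROBO1pos and 1.22 ± 0.0871 in ROBO1neg (exact permutation adjusted p = 0.0119). With the median of its neighbours, 0.26, removed and taken as fixed, MX2 was at -0.38 and was called (adjusted p = 0.012).

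Sensors of viral RNA among the set divided. DHX58, which encodes the helicase LGP2, was at 0.271, 0.371, 0.116, 0.162 and 0.205 CPM in ROBO1pos and 1.19, 1.46, 1.13, 1.67 and 1.98 in ROBO1neg (-2.70, SE 0.28), a low level in both. DDX58, which encodes RIG-I, was at 7.28 ± 0.689 against 13.1 ± 2.23 CPM (-0.85, SE 0.12, adjusted p = 1.2e-05). IFIH1, which encodes MDA5, was at 30.7, 27.6, 26.5, 30.2 and 21.4 CPM in ROBO1pos and 23.1, 18.7, 36.5, 40.3 and 27.1 in ROBO1neg and was not called (-0.10, SE 0.18, adjusted p = 0.61). The ROBO1neg libraries of IFIH1 spread on both sides of the ROBO1pos ones. Within a library, the log2 ratio of DDX58 to IFIH1 was lower in ROBO1pos by 0.77 (exact permutation p = 0.0238, adjusted p = 0.0298 over the pairs), but the call was lost when any of ROBO1pos replicates 1 to 4 was left out, with differences from -0.77 to -0.703 and adjusted p from 0.0549 to 0.0595.

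Of the enzymes that double-stranded RNA activates, the 4 OAS genes were higher in ROBO1neg (as were 40.4% of all genes tested) and EIF2AK2 was not called. OAS1, OAS2 and OAS3, which make the 2-5A messenger that turns on RNase L, had log2 fold changes of -1.27, -1.51 and -1.04. OAS3 reached 54.5 ± 6.59 CPM in ROBO1neg against 26.5 ± 3.74 in ROBO1pos. None of the 3 overlapped between the populations (35.7% of all genes tested did not either, with ROBO1neg above). OASL, a relative without that activity, was at 0.155 ± 0.0793 against 0.682 ± 0.146 CPM (-2.11, SE 0.31). The log2 ratio of OAS2 to OAS3 was lower in ROBO1pos by 0.48 (exact permutation p = 0.0159, adjusted p = 0.0216), and that of OAS1 to OAS3 by 0.24, which did not pass (adjusted p = 0.0824); it passed without ROBO1pos replicate 4 (0.0496) or 5 (0.0458). EIF2AK2, which encodes the kinase PKR that halts translation, measured 68.6 ± 5.40 CPM in ROBO1pos and 65.2 ± 7.49 in ROBO1neg (0.07, SE 0.08, adjusted p = 0.41).

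The IFIT genes did not move together. IFIT3 was at 1.08, 0.889, 1.70, 1.495 and 1.81 CPM in ROBO1pos and 4.97, 6.50, 6.47, 6.86 and 6.71 in ROBO1neg (-2.18, SE 0.18), and IFIT2 was at 0.492 ± 0.110 against 1.61 ± 0.481 CPM (-1.71, SE 0.26). IFIT1, in the same cluster of chromosome 10, was at 0.504 to 0.815 CPM (median 0.647) in ROBO1pos and 0.409 to 1.55 (median 0.977) in ROBO1neg and was not called (-0.48, SE 0.31, adjusted p = 0.17). IFIT1 was called without ROBO1neg replicate 4, at -0.69 (adjusted p = 0.030), and was at -0.22 (adjusted p = 0.48) without ROBO1neg replicate 2. IFIT5 measured 11.5 ± 0.634 CPM in ROBO1pos and 11.2 ± 0.786 in ROBO1neg (0.04, SE 0.07). Within a library, the log2 ratio of IFIT1 to IFIT3 was -0.99 ± 0.586 in ROBO1pos and -2.79 ± 0.745 in ROBO1neg (exact permutation adjusted p = 0.0119), whereas those of IFIT2 to IFIT3 and IFIT5 to IFIT1 did not pass (adjusted p = 0.102 and 0.198). The promoter windows of IFIT1, IFIT3 and IFIT5 each hold the response element.

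ISG15 and the genes that attach or remove it went different ways. ISG15, a ubiquitin-like modifier, was at 27.0, 25.1, 25.0, 20.003 and 18.9 CPM in ROBO1pos and 23.5, 29.8, 26.9, 29.8 and 28.3 in ROBO1neg (-0.25, SE 0.10, adjusted p = 0.033). The ranges overlap, and the call was lost without ROBO1pos replicate 4 or 5 or ROBO1neg replicate 2, 4 or 5 (adjusted p from 0.0546 to 0.0801). It was also lost for ISG15 under upper quartile scaling (-0.19, adjusted p = 0.10) and with library size only (-0.23, adjusted p = 0.052). ISG15 lies near the end of chromosome 1 among genes with a median log2 fold change of 0.95. With that median removed it was at -1.20 (adjusted p = 7.5e-08). That p-value takes the median as fixed and leaves out the spread of the neighbours. The activating enzyme UBA7 and the conjugating enzyme UBE2L6, which are outside the set, were higher in ROBO1neg at 10.3 ± 1.97 against 0.476 ± 0.0992 CPM (-4.42, SE 0.19) and at 37.6 ± 4.03 against 8.11 ± 0.687 (-2.22, SE 0.09). HERC5, the human ligase of ISG15, went the other way, at 16.2, 20.7, 20.03, 18.5 and 20.5 CPM in ROBO1pos and 5.44, 6.33, 5.38, 4.88 and 5.41 in ROBO1neg (1.81, SE 0.09, adjusted p = 2.6e-10). HERC6, its neighbour on chromosome 4, was at 11.2, 11.1, 9.96, 10.9 and 10.9 CPM in ROBO1pos and 8.75, 8.91, 8.20, 7.95 and 8.29 in ROBO1neg (0.36, SE 0.07, adjusted p = 2.7e-04). Both ligase genes were thus higher in every ROBO1pos library, HERC5 by the larger factor: the log2 ratio of HERC5 to HERC6 was 0.82 ± 0.182 in ROBO1pos and -0.61 ± 0.0817 in ROBO1neg (exact permutation adjusted p = 0.0119). HERC6 was at 0.18 with the median of its neighbours removed, against 0.36 as fitted. USP18, which removes ISG15 and blocks the type I receptor, was at 0.911 ± 0.264 against 0.846 ± 0.135 CPM and was not called (adjusted p = 0.62). It shares 23% of its 50-base stretches with USP41. Of 8 regulators and ISG15-conjugating genes tested outside the set, 4 were higher in ROBO1neg (50%, against 40.4% of all genes tested), 1 in ROBO1pos (12.5%, against 41.6%) and 3 were not called. Beside UBA7 and UBE2L6, the feedback inhibitors SOCS1 and SOCS3 were at -2.10 (SE 0.36) and -3.68 (SE 0.16), SOCS3 with 18.2 ± 2.64 CPM in ROBO1neg and 1.43 ± 0.372 in ROBO1pos. The SUMO ligase gene PIAS1 was higher in ROBO1pos, at 39.8 ± 1.65 against 23.996 ± 1.46 CPM (0.73, SE 0.05), and was at 0.02 with the median of its neighbours removed. The phosphatase genes PTPN2, PTPN6 and PTPN11 were at -0.04, 0.03 and 0.03.

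SAMD9 was the gene of the set with the largest difference towards ROBO1pos. SAMD9, a restriction factor for poxviruses that acts on translation, lies at chr7:93099518-93117979 and was at 49.4, 49.0, 48.5, 49.3 and 39.7 CPM in ROBO1pos and 7.65, 6.16, 7.03, 8.16 and 5.48 in ROBO1neg (2.77, SE 0.10, adjusted p = 1.0e-11). Replicate 5 is lowest in both populations. Its paralogue and neighbour SAMD9L was not tested, with 1 count over all ROBO1pos libraries and 41 over all ROBO1neg libraries, a ratio of 41.3 towards ROBO1neg (95% exact binomial interval 7.01 to 1670, counting error only). The neighbours were therefore read in opposite proportions, although SAMD9L was low in both populations.

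PARP9, DTX3L and PARP14 lie together on chromosome 3, and the first 2 form a complex that modifies proteins and supports interferon signalling. PARP14, which encodes a mono-ADP-ribosyltransferase, was at 26.04, 26.3, 31.5, 34.3 and 33.5 CPM in ROBO1pos and 128, 113, 149, 144 and 144 in ROBO1neg (-2.16, SE 0.09). DTX3L measured 80.6 ± 5.87 CPM in ROBO1neg and 32.7 ± 1.80 in ROBO1pos (-1.30, SE 0.06), and PARP9 measured 29.2 ± 1.36 against 16.0 ± 0.5002 (-0.87, SE 0.05). PARP9 and DTX3L start close together on opposite strands, with 1 match to the response element in the windows of both, and their log2 ratio was -1.03 ± 0.0551 in ROBO1pos and -1.46 ± 0.0928 in ROBO1neg (exact permutation adjusted p = 0.0119). Tested genes around them had medians from -0.87 to -0.85. With these removed, PARP14 was at -1.30, DTX3L at -0.45 and PARP9 at -0.02, which was no longer called (adjusted p = 0.79). PLSCR1, a phospholipid scramblase further along the chromosome, went from -2.002 to -1.33 in the same way.

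**Figure D3:**
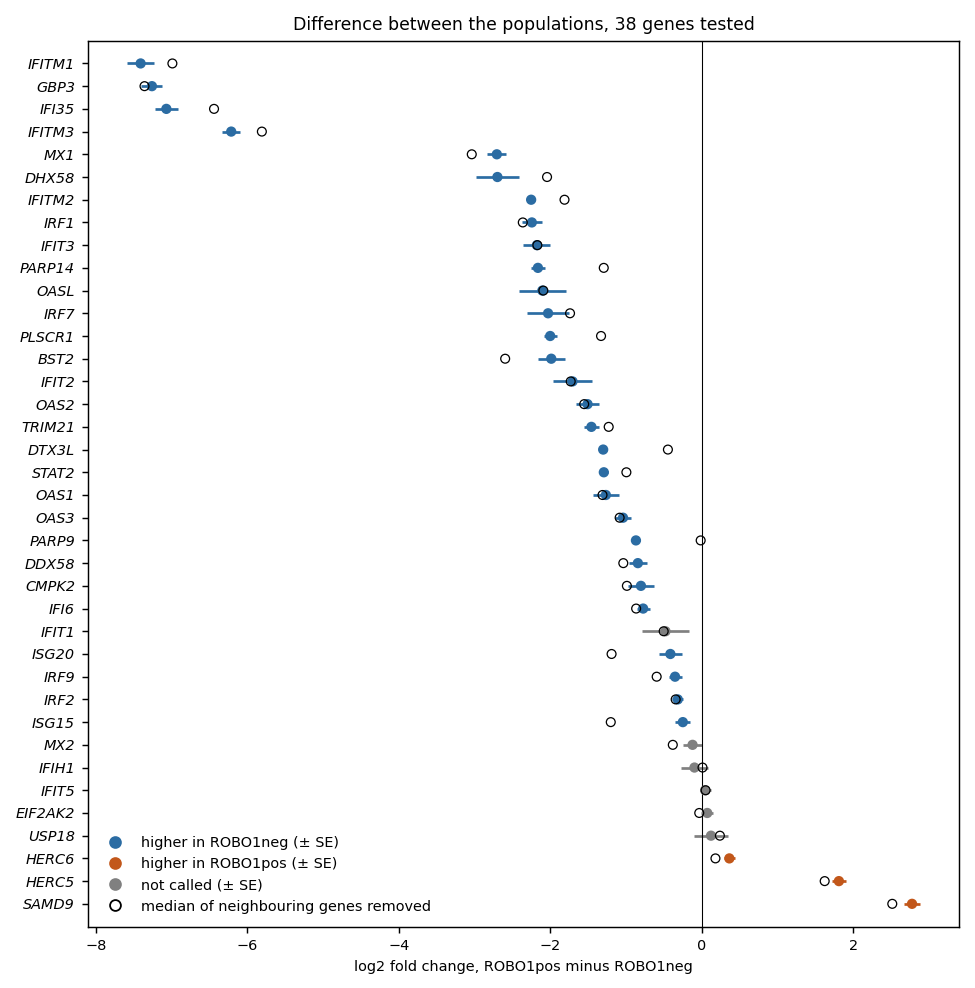
Log2 fold change of the 38 tested genes (filled circles, ± SE; ROBO1pos minus ROBO1neg) and the value after removal of the median of the 20 nearest tested genes on each side (open circles). IFITM1, GBP3, IFI35 and IFITM3 lie apart at the left in both; PARP9 moves to -0.02 and ISG15 to -1.20.

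IFI35 and the remaining effectors were mostly higher in ROBO1neg. IFI35, a leucine zipper protein that pairs with NMI, was at 0.116, 0.185, 0.271, 0.121 and 0.247 CPM in ROBO1pos and 21.9, 25.5, 26.5, 27.4 and 27.9 in ROBO1neg (-7.07, SE 0.15, adjusted p = 8.9e-14). It lies at chr17:43006784-43014456 and had 24 counts over all ROBO1pos libraries. NMI, which is outside the set, was higher in ROBO1neg by a smaller factor (-2.18, SE 0.08). BST2, the tetherin that holds budding virions at the cell surface, was at 15.7 ± 4.02 against 3.97 ± 0.667 CPM (-1.99, SE 0.18), and TRIM21, an intracellular antibody receptor, at 17.5 ± 1.77 against 6.36 ± 0.829 (-1.46, SE 0.10). IFI6, CMPK2 and the exonuclease gene ISG20 were at -0.78, -0.80 and -0.42. ISG20 overlapped between the populations and was no longer called without ROBO1pos replicate 3 or ROBO1neg replicate 4 or 5 (adjusted p from 0.0537 to 0.0583), but was at -1.19 with the median of its neighbours, 0.78, removed.

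The other 10 members could not be tested. IFI27, IFI44 and IFI44L, which are often strongly induced by type I interferon, had 0 counts in all 10 libraries. XAF1, a promoter of cell death, had 0 counts in ROBO1pos and 54 in ROBO1neg, at least 18.1-fold higher if 3 counts over the ROBO1pos group are taken as the floor. GBP1 had 2 against 84 counts (ratio 42.3, 95% exact binomial interval 11.3 to 355) and TRIM22 2 against 34 (17.1, 4.39 to 147), while RSAD2, which encodes viperin, had 16 against 14, and GBP2 and GBP4 had 26 against 29 and 4 against 11. Counts of GBP1, SAMD9L, XAF1 and TRIM22 were uneven within ROBO1neg, with up to 31, 17, 23 and 12 in 1 library and as few as 4, 2, 3 and 0 in another. When every gene with at least 1 count was tested, these 4 were called higher in ROBO1neg, which brought the count there to 33.

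**Figure D4:**
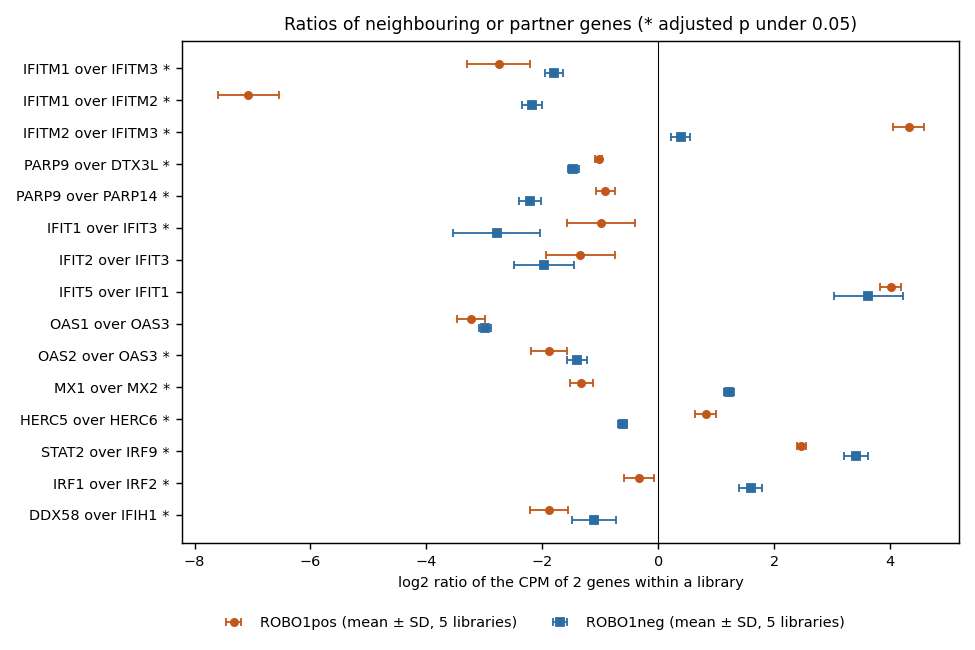
Log2 ratio of the CPM of 2 genes within a library (mean ± SD over 5 libraries per population) for the 15 pairs in which both genes were tested. The bars of the populations are furthest apart for IFITM1 over IFITM2, which differed by -4.89, and overlap for IFIT5 over IFIT1.

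Interferon-stimulated genes outside the set were also mostly higher in ROBO1neg. Of 30 tested from a second list, 21 were higher in ROBO1neg (70%, against 40.4% of all genes tested), 5 in ROBO1pos (16.7%, against 41.6%) and 4 were not called, with a median log2 fold change of -0.99. APOBEC3G, a cytidine deaminase that restricts retroviruses, measured 101 ± 6.45 CPM in ROBO1neg and 0.990 ± 0.683 in ROBO1pos (-6.66, SE 0.19). EPSTI1 and SLFN5 were at -4.31 and -3.69, and TDRD7 and HELZ2 at -2.68 and -1.91. The 5 higher in ROBO1pos were DDX60L (1.37), IFITM10 (1.12), IFI30 (0.55), PNPT1 (0.46) and LAP3 (0.31). Of these, IFITM10 was low, with 139 counts over all ROBO1pos and 64 over all ROBO1neg libraries, and its ranges overlapped. The interferon-induced chemokine genes CXCL9 and CXCL10, and IDO1, had 0 counts in every library, and CXCL11 had 1 and 8 counts in all.

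**Figure D5:**
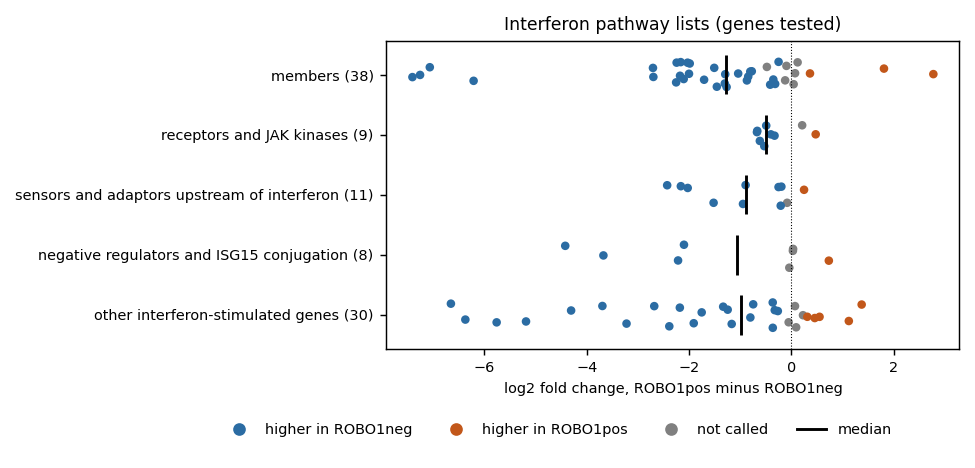
Log2 fold change of each tested gene (points, coloured by call) in the set and in 4 lists of the pathway, with the median of each list (black bar) and the number tested in brackets. Medians run from -1.28 for the set to -0.49 for receptors and kinases, and most points lie left of 0.

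Within a population, the median of the 38 genes shifted from library to library by more than that of all genes tested. Single genes of the set also had a larger median SD, without matching for read depth. The median deviation of the 38 genes from the mean of their own population (log2 CPM) ran from -0.05 to 0.05 in ROBO1pos and from -0.08 (replicate 1) to 0.10 (replicate 4) in ROBO1neg. In ROBO1neg replicate 5, 27 of 38 genes lay above that mean, and in replicate 1, 15 of 38. The median SD of log2 CPM within a population was 0.21 in ROBO1pos and 0.18 in ROBO1neg, against 0.11 in both for all genes tested. In ROBO1pos the largest SDs were those of IFITM1, IRF7 and DHX58, with 36, 36 and 29 counts over its libraries. In ROBO1neg the largest was that of IFIT1, with 114 counts. The part of low counts in these SDs was not tested. Leukocyte markers were low: their summed level ran from 4.68 to 5.50 CPM in ROBO1pos and 5.39 to 7.12 in ROBO1neg. Of 12, 3 were tested. CD68 was higher in ROBO1neg (-0.80), as were 40.4% of all genes tested, and LYZ in ROBO1pos (0.42), as were 41.6%. CD14 was not called. Among those not tested, ITGAM had 4 counts over all ROBO1pos and 109 over all ROBO1neg libraries without overlap, CD3E had 1 and 16, PTPRC had 6 and 0, and CD2 had 0 in all. Fibroblast and endothelial markers summed to 10.6 to 14.6 CPM in ROBO1pos and 16.5 to 26.7 in ROBO1neg. Of 11, 5 were tested: COL1A1, PDGFRB and VWF were higher in ROBO1neg (-1.56, -1.35 and -2.82) and LUM and COL1A2 in ROBO1pos (6.67 and 2.52). These were 60% and 40% of those tested, against 40.4% and 41.6% of all genes tested. COL3A1 was at 0. The part of these markers in the results was not tested. Fewer cells that make an RNA and less of it per cell cannot be told apart in bulk samples.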

How the data were processed

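Polyadenylated RNA of 5 ROBO1pos and 5 ROBO1neg replicates was sequenced from libraries of a stranded TruSeq kit, per the labels' protocols. The deposited values are raw read counts per gene symbol, 1 file per library. STAR 2.6.0c, SAMtools 1.9, DESeq2 1.24.0 and GRCh38 are named in the submitters' processing notes. Counter, strand setting and annotation: not given in the sources used here. Reads of overlapping or antisense genes may therefore be mixed. Rows naming no gene were left out: reads with no feature (14.1% to 16.7% of those listed), ambiguous reads (0.806% to 0.881%) and reads aligned to several places (24.1% to 26.2% in ROBO1pos, 20.5% to 21.5% in ROBO1neg).

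Counts were filtered by edgeR's filterByExpr, scaled by TMM and tested with edgeR 4.0.16 (quasi-likelihood, group as the only term, R 4.3.3); p-values were adjusted by Benjamini-Hochberg over all 14932 genes. SE came from the coefficient and its F statistic, and log2 CPM used a prior count of 2. For log2 ratios of 2 genes an exact permutation test, two-sided, was used (smallest p 0.00794), adjusted over 15 pairs. On simulated data (14812 genes, the same dispersion for each), 97 of 100 genes changed 2-fold and 100 of 100 changed 4-fold were recovered, with 8 false calls. Far fewer genes were changed there than the 82% called here, so the 8 do not measure false calls in these data. Positions came from a RefSeq table (GRCh38.p14), which placed 13663 tested genes by symbol, 944 by an older name and 325 not at all; promoter windows are RefSeq's, and shared 50-base stretches were counted in GENCODE 29 transcripts (GRCh38).

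The members, other lists and tests were chosen with earlier results of these data known. Library values were given for the 10 called genes with the most negative and all with a positive log2 fold change, and for STAT2 and the IRF genes; of other lists, up to 6 called genes by adjusted p plus receptors and kinases; genes that limit a result were named after their values were seen. One gene of the receptor and kinase list is not reported here. No within-population pair of libraries was a duplicate (3.55 to 22.0 times the variance of sampling). Alternatives were other scalings, filters and tools (DESeq2 1.42.0, limma 3.58.1), a test against 1.5-fold, a replicate block, each library left out and removal of the median of 20 neighbours on each side. That median came from these same libraries and entered the fit as a fixed value. Calls and p-values after its removal therefore leave out the spread among the neighbours.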

Additional observations from a re-analysis of the deposited data

Results flagged for a closer look

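For each of the 38 tested genes, the highest and lowest of the 5 libraries of a population were compared with the other 4 by Dixon's ratio. Of 76 sets of 5 libraries, 9 held a library far from the rest; chance gives about 1 in 20.

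In ROBO1pos, 3 of these were in replicate 2: IFITM2 was low there at 39.8 CPM (46.2 to 48.3 in the others), OAS2 was low at 4.41 (7.20 to 8.33) and OASL was high at 0.296 (0.116 to 0.123). ISG20 was high in replicate 1 at 6.50 CPM (4.11 to 4.74), HERC6 low in replicate 3 at 9.96 (10.9 to 11.2) and SAMD9 low in replicate 5 at 39.7 (48.5 to 49.4). In ROBO1neg, IFIT3 was low in replicate 1 at 4.97 CPM (6.47 to 6.86), as was TRIM21 at 14.4 (17.6 to 18.8), and USP18 was low in replicate 4 at 0.614 (0.865 to 0.947). Of these 9 values, that of ISG20 fell within the range of the other population; that of USP18 lay just below the ROBO1pos range, which began at 0.659.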

How the results depend on the processing

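The direction of every called gene of the set held under the alternatives run. Over 372 comparisons of a gene with its value under another setting, 362 kept their side of the threshold, 9 lost the call and 1 gained it; with 1 library left out, 371 of 380 did, 8 lost it (ISG15 and ISG20) and 1 gained it. The count higher in ROBO1neg ran from 23 (filter of 5 CPM in 5 libraries, which tests fewer genes) to 33 (no filter) and from 27 to 29 with 1 library left out; that higher in ROBO1pos was 3. Against 1.5-fold, 24 and 2 were called, without CMPK2, IRF2, IRF9, ISG15, ISG20 and HERC6. Upper quartile scaling and library size only each gave 28, without ISG15. DESeq2 and limma-voom called the same 29 and 3 genes as edgeR, and so did the replicate block. Against 1.5-fold, counts over all genes were 3298 higher in ROBO1neg and 2938 in ROBO1pos, those of receptors and kinases 0 and 0, and those higher in ROBO1pos 0 for sensors and 2 for the second list. With the median of neighbours removed, 28 of the 29 genes remained, with MX2 gained and PARP9 lost. Relative to that median, genes called towards ROBO1pos were 0 among receptors, 2 among sensors and 0 among regulators. The cause was not tested. Leaving out 1 library gave 1 to 2 receptor genes higher in ROBO1pos, -0.29 to -0.15 for the ratio of OAS1 to OAS3 and -0.91 to -0.66 for DDX58 to IFIH1.

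Same-numbered replicates correlated in their deviations at 0.062 to 0.17, above 0.1 for 3 of 5 numbers, and in 5 of 5 cases best with their own number, a hint of pairing from the data. The labels name nothing that the numbers share and not every correlation passed 0.1, so the main tests were not paired, and the gene ratios were tested without pairing only. With the replicate block, 29 members were higher in ROBO1neg and 3 in ROBO1pos, as without it. Differences of IFITM1, GBP3 and IFI35 rest on 17 to 36 counts in all ROBO1pos libraries, so depth limits the size of those folds.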
